A study of Mus musculus with 13 samples.

Results

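Genes of the unfolded protein response and the integrated stress response, 32 of the 24417 named genes in each count table, were followed in sorted mouse CD4 T cells. They were selected by symbol from these pathways, not by a threshold on measured values, though with earlier results of these data known. They comprise 17 genes of the endoplasmic reticulum (ER) chaperone branch (the transcription factor Xbp1, ER chaperones and genes of ER-associated degradation), the 3 ER stress sensors Ern1, Atf6 and Eif2ak3, and a branch of 12 genes made up of Atf4 and its targets. All 32 symbols were present in both tables, and 31 had enough counts to be tested. Chac1 did not: it had no count except 1 in rescued Treg 3 and 6 in activated wannabe 1.

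Bulk RNA-seq compared 5 populations of C57BL/6 mice in 2 experiments. In the first, males received 4-hydroxytamoxifen on postnatal day 14 and were analysed at day 21. Control Treg cells (n = 3) came from Foxp3DTR-GFP/yCd4creERT2 mice and rescued Treg cells (n = 3) from Foxp3LSL/yCd4creERT2 mice. Treg “wannabes” (n = 2, called male wannabes below) came from Foxp3LSL/yCd4wt mice. Foxp3LSL is a Foxp3 allele interrupted by a removable Thy1.1 reporter and stop cassette, so that wannabes have switched on the locus but make no functional Foxp3. Cd4creERT2 is a tamoxifen-inducible recombinase driven from the Cd4 locus, which restored Foxp3 in the rescued cells, and Cd4wt males lack it and keep the allele closed. In the second experiment, females of 9 to 11 weeks received repeated diphtheria toxin. Resting wannabes (n = 3) came from Foxp3LSL/WTCd4wt mice, whose other allele gives normal Treg cells, and activated wannabes (n = 2) from Foxp3LSL/DTRCd4wt mice, in which the toxin removes the Treg cells that carry the diphtheria toxin receptor. All cells were sorted from spleen and lymph nodes pooled within the sample.

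The libraries held between 25556783 and 36659638 counts. Foxp3 followed the labels, with 866 to 1112 CPM (counts scaled to library size) in rescued Treg cells, 167 to 252 in control Treg cells, 84.1 to 99.98 in male wannabes, 67.2 to 74.9 in resting wannabes and 52.9 to 58.3 in activated wannabes. The 6 T cell markers summed to between 3694 and 5805 CPM in every library. Plasma cell markers are of interest because plasma cells are rich in ER chaperones. Only 4 of 8 were found, without Ighm, Igkc, Igha and Ighg1, and these summed to at most 27.4 CPM. Mzb1 was at 0 in every control Treg and male wannabe library. Sdc1 was at 6.49, 7.75 and 4.15 CPM in resting and 0.45 and 0.39 in activated wannabes. Jchain was at 4.54, 1.44 and 19.8 against 0.22 and 0.58. Derl3 went the other way, at 1.06, 1.03 and 1.26 against 4.49 and 3.77. Summed B cell markers reached at most 44.2 CPM, myeloid markers 10.9, NK cell markers 6.84 and erythroid markers 16.2. CPM values were normalised within each experiment, so that levels in males and females are set side by side here without a test. Sex, age, treatment and experiment cannot be told apart between them.

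The unfolded protein response senses misfolded protein in the ER through Ern1 (IRE1), Atf6 and Eif2ak3 (PERK). IRE1 splices the Xbp1 mRNA and Atf6 is cut to release a transcription factor, and both arms raise chaperones and degradation genes. PERK phosphorylates eIF2, which lowers general translation and lets the Atf4 mRNA be translated. The kinases Gcn2, Pkr and Hri phosphorylate eIF2 in response to amino acid shortage, viral RNA and heme shortage, and this wider scheme is the integrated stress response. Atf4 then raises genes of amino acid supply, including the serine and one-carbon pathway that dividing T cells use. Gene-level counts show neither Xbp1 splicing nor Atf4 translation, and all values below are mRNA levels.

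Promoter letters are shown first because the classical ER stress response element (ERSE) is what many of the chaperone genes share. RefSeq promoters (GRCm38.p6), 250 bases before to 50 bases after each start, were found for 30 members; Atf6 and Manf had none. The ERSE, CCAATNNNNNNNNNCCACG on either strand, was found in 7 of the 16 chaperone-branch genes with a promoter (43.8%): Hspa5, Hsp90b1 with 2 matches, Pdia6, Calr, Canx, Dnajc3 and Creld2. It was found in 39 of all 32851 promoters (0.119%). The shorter ERSE-II, ATTGGNCCACG, which shares the CCACG end, was in Herpud1 and Dnajb11 and in 12 promoters of all (0.0365%). TGACGTGG, a core bound by XBP1 whose reverse strand overlaps the CCACG end, was in no member's window and in 222 promoters (0.676%). The Atf4-type element TGATGNAA was in Asns, Trib3 and Chac1, 3 of 12 genes of the Atf4 branch (25%), in Herpud1, and in 1304 promoters of all (3.97%).

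The windows below hold, in capitals, the ERSE of Dnajc3 and Creld2, whose mRNA was higher in both Treg groups than in male wannabes, then that of Pdia6 and Calr, which were lower in control Treg cells, and that of Canx, which passed no test. Positions are GRCm38 and each sequence reads 5′ to 3′ on the strand of its gene, upstream of the annotated start.
Dnajc3, chr14:118937802-118937870, plus strand: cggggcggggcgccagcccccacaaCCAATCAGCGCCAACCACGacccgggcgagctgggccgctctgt
Creld2, chr15:88819495-88819563, plus strand: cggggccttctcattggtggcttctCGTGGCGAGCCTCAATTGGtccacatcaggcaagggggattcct
Pdia6, chr12:17266466-17266534, plus strand: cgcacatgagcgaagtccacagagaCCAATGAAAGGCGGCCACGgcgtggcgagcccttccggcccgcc
Calr, chr8:84847050-84847118, minus strand: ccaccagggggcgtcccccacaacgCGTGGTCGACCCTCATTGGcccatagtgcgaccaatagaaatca
Canx, chr11:50325775-50325843, minus strand: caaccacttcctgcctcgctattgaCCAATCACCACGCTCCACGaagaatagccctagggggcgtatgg

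Herpud1 and Chac1 are shown for the Atf4-type element, and Herpud1 also for ERSE-II, again in capitals. The element read on the opposite strand in both.
Herpud1, chr8:94386292-94386412, plus strand: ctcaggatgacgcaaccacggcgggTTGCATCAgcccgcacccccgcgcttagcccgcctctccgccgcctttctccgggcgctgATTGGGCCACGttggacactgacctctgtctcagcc
Chac1, chr2:119351024-119351081, plus strand: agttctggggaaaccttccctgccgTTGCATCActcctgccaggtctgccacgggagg

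**Figure D1:**
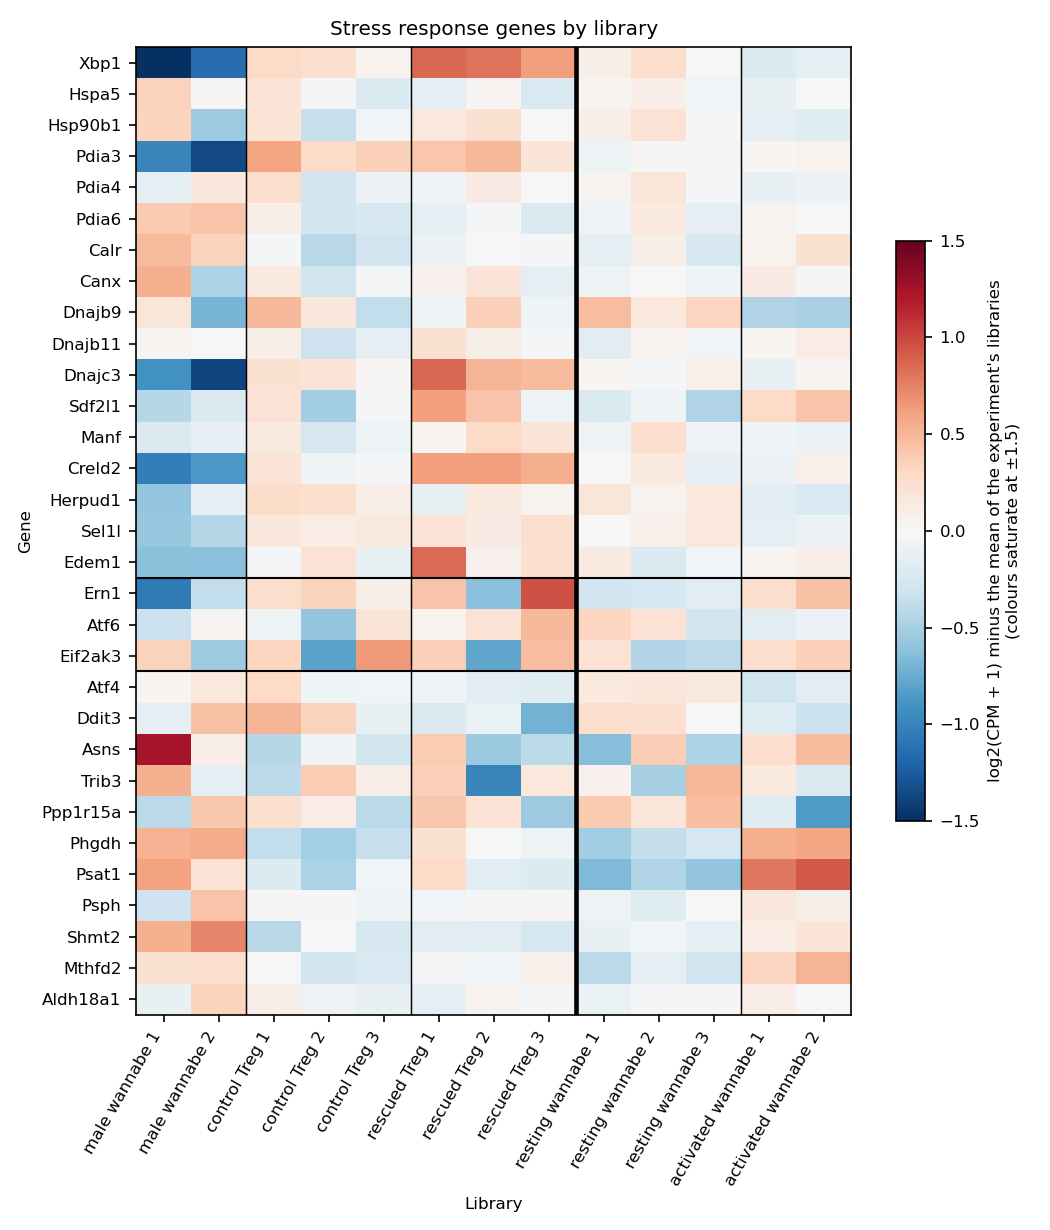
Level of the 31 tested genes (rows) in the 13 libraries (columns), as log2(CPM + 1) minus the mean over the libraries of the same experiment, with red above and blue below that mean. Horizontal lines part the chaperone branch, the sensors and the Atf4 branch, and the thick vertical line parts the males from the females; Xbp1, Pdia3, Dnajc3 and Creld2 are low in both male wannabe libraries, and Phgdh, Psat1 and Mthfd2 are higher in both activated wannabe libraries than in the resting ones.

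Treg cells were first compared with the male wannabes, which lack functional Foxp3. The groups also differ in Cd4 genotype and in the state of the host. Per the paper, disease progressed in treated Foxp3LSL males with Cd4wt, whereas the control mice were healthy. Foxp3, Cd4 genotype and disease cannot be told apart here. In rescued Treg cells 6 members were higher and 1 was lower, where 10.0% of the 14925 genes tested were higher and 4.06% lower (edgeR's quasi-likelihood test, adjusted p under 0.05); with DESeq2's size factors in edgeR, 6 members were higher and 3 lower. In control Treg cells 5 were higher and 4 lower, against 9.92% and 6.27% of all genes. DESeq2, for which no share over all genes was taken, called 6 higher and 4 lower in rescued Treg cells, adding Pdia6, Calr and Phgdh as lower. In control Treg cells it called 6 higher and 7 lower, adding Herpud1 as higher and Asns, Psat1 and Mthfd2 as lower. The higher members were all of the chaperone branch. The median log2 fold change of the 17 chaperone-branch genes was 0.35 in rescued and 0.26 in control Treg cells, and that of all genes was 0 and 0.09. The median of the 11 tested Atf4-branch genes was -0.32 and -0.19. Both comparisons share the same 2 wannabe libraries and are not independent.

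Xbp1, the transcription factor made active by IRE1, was at 30.96 and 47.8 CPM in the male wannabes, at 131, 126 and 111 in control Treg cells and at 195, 189 and 166 in rescued Treg cells. The 3 groups did not overlap. It rose 4.66-fold in rescued Treg cells against the wannabes (log2 fold change 2.22 ± 0.22 SE, adjusted p = 0.000253) and 3.12-fold in control Treg cells (1.64 ± 0.22, adjusted p = 0.00105). In the females Xbp1 was at 289, 325 and 272 CPM in resting and at 236 and 245 in activated wannabes. All 5 female libraries were thus above every male library.

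Dnajc3, a co-chaperone of BiP also known as an inhibitor of PERK, showed the same order. It was at 52.4 and 37.4 CPM in male wannabes, 116, 115 and 100.2 in control and 180, 141 and 138 in rescued Treg cells. No group overlapped another, and the log2 fold changes against the wannabes were 1.77 ± 0.22 in rescued (adjusted p = 0.000484) and 1.297 ± 0.213 in control Treg cells (adjusted p = 0.00276). Creld2, an ER-resident protein induced by ER stress, was at 14.2 and 16.2 CPM in male wannabes, 34.9, 29.0 and 29.7 in control and 46.9, 46.9 and 44.4 in rescued Treg cells. It rose by 1.60 ± 0.24 (adjusted p = 0.00115) and by 1.04 ± 0.23 (adjusted p = 0.0116), again with no overlap between the 3 groups. The latter call was lost without male wannabe 1, with leave-one-out values from 0.94 to 1.09.

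Pdia3, the disulfide isomerase that works with calnexin and calreticulin on glycoproteins, was at 341 and 264 CPM in male wannabes. Its levels were 1019, 824 and 868 CPM in control and 905, 955 and 776 in rescued Treg cells, so that both Treg groups lay far above the wannabes while overlapping each other. The log2 fold changes were 1.54 ± 0.18 in rescued (adjusted p = 0.000395) and 1.58 ± 0.18 in control Treg cells (adjusted p = 0.000506). The female wannabes held 839 to 896 CPM when resting and 903 and 918 when activated, values inside the range of the male Treg cells. The low Pdia3 level was thus seen in the male wannabes and not in the female wannabes.

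Of the degradation genes, Sel1l was higher in both Treg groups, Edem1 in rescued Treg cells, and Herpud1 passed neither of edgeR's tests. DESeq2 called Herpud1 higher in control Treg cells (adjusted p = 0.0429). Sel1l, the adaptor of the Hrd1 ubiquitin ligase, was at 87.8 and 97.0 CPM in male wannabes and at 141 to 155 in the 6 Treg libraries. It rose by 0.70 ± 0.16 in rescued (adjusted p = 0.0122) and by 0.64 ± 0.16 in control Treg cells (adjusted p = 0.0173), where the call was lost without control Treg 1, control Treg 3 or male wannabe 1 (0.57 to 0.68 over all 8 leave-one-out fits). Edem1, which passes misfolded glycoproteins on to degradation, was at 71.0 and 70.1 CPM in male wannabes, 108, 126 and 101 in control and 198, 114 and 129 in rescued Treg cells. All 6 Treg libraries lay above the wannabes, but Edem1 passed the test in rescued cells (1.06 ± 0.24, adjusted p = 0.0136) and not in control cells (0.67 ± 0.24, adjusted p = 0.0797). The call in rescued cells was lost without male wannabe 2 (0.79 to 1.26 over the leave-one-out fits). Herpud1, a membrane protein of the degradation complex, was at 93.3 and 129 CPM in the wannabes and at 130 to 170 in the 6 Treg libraries.

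Per kilobase of exon, Hspa5, Hsp90b1, Pdia3 and Calr were the 4 most abundant members in control and rescued Treg cells and in both female groups. Of these, Pdia3 was higher in Treg cells than in male wannabes, and Hspa5, Hsp90b1 and Calr were not called higher. Hspa5 (BiP), the central ER chaperone, was at 939 and 749 CPM in male wannabes, 853, 728 and 639 in control and 664, 751 and 632 in rescued Treg cells, with all 3 groups overlapping. Calr, the calcium-binding lectin chaperone, was at 762 and 697 CPM in male wannabes, 538, 409 and 447 in control and 515, 542 and 542 in rescued Treg cells. The wannabes were the highest, and Calr fell by 0.65 ± 0.15 on the log2 scale in control Treg cells (adjusted p = 0.0141), whereas in rescued cells the change was -0.45 ± 0.15 (adjusted p = 0.0700). The disulfide isomerase Pdia6 was likewise highest in the male wannabes (323 and 331 CPM, against 201 to 263 in Treg libraries) and fell by 0.54 ± 0.16 in control Treg cells (adjusted p = 0.0437), with -0.54 ± 0.16 in rescued cells (adjusted p = 0.0502). The Pdia6 call in control Treg cells was kept in 2 of 8 leave-one-out fits (-0.67 to -0.47; kept without control Treg 1 or rescued Treg 3), and the Calr call in 6 of 8 (-0.77 to -0.56; lost without control Treg 2 or 3). Hsp90b1 (Grp94), Pdia4, Canx (calnexin), Dnajb9, Dnajb11, Sdf2l1 and Manf passed neither test.

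Genes with an ERSE in the promoter thus went in both directions. Of the 7, Dnajc3 and Creld2 were higher in both Treg groups, Pdia6 and Calr were lower in control Treg cells, and Hspa5, Hsp90b1 and Canx passed neither of these tests. Of the 9 chaperone-branch genes whose promoter windows held no exact match, Xbp1, Pdia3, Sel1l and Edem1 were higher in rescued Treg cells. The other 5 passed neither of edgeR's tests against the male wannabes. Elements with a mismatch were not searched for. An exact ERSE was thus present in genes of either direction and in genes that passed neither of these tests.

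**Figure D2:**
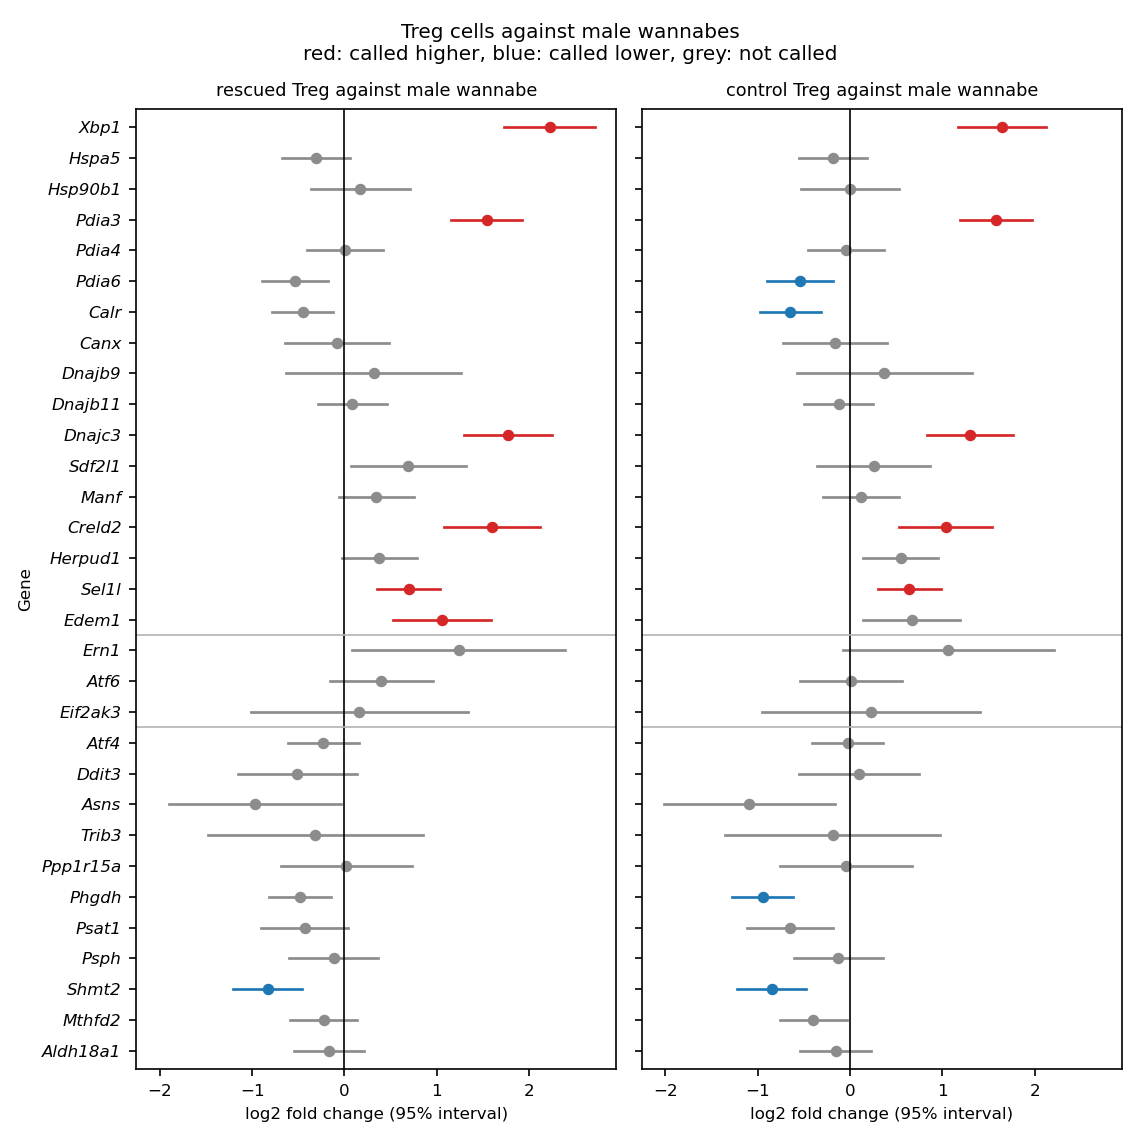
Log2 fold change (points) with 95% interval (lines) of the 31 tested members in rescued Treg cells (left) and control Treg cells (right) against male wannabes, from the fit over 8 male libraries. The chaperone branch, the sensors and the Atf4 branch are parted by lines; Xbp1, Pdia3, Dnajc3 and Creld2 lie above 1 in both panels, while Hspa5, Hsp90b1 and Pdia4 lie near 0.

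In the Atf4 branch Shmt2 was lower in both Treg groups and Phgdh in control Treg cells, and no other member passed edgeR's test. DESeq2 also called Phgdh lower in rescued Treg cells (adjusted p = 0.0149). In control Treg cells it also called Psat1 (adjusted p = 0.0205), Mthfd2 (adjusted p = 0.0408) and Asns (adjusted p = 0.0479) lower. Shmt2, the mitochondrial serine hydroxymethyltransferase, was at 202 and 232 CPM in male wannabes and at 104 to 139 in the 6 Treg libraries. It fell by 0.83 ± 0.17 in rescued (adjusted p = 0.00764) and by 0.85 ± 0.17 in control Treg cells (adjusted p = 0.00713). Phgdh, which opens serine synthesis, was at 368 and 377 CPM in male wannabes, 199, 180 and 202 in control and 301, 256 and 243 in rescued Treg cells. The 3 groups did not overlap, and Phgdh fell by 0.94 ± 0.15 in control Treg cells (adjusted p = 0.00243), with -0.48 ± 0.15 in rescued cells (adjusted p = 0.0572). Proliferation genes moved along with these: their summed level was 1238 to 2174 CPM in male wannabes, 827 to 1458 in rescued and 495 to 919 in control Treg cells. Their part in the result was not tested.

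The next enzymes of the pathway leaned the same way without passing edgeR's test. Psat1, the second step of serine synthesis, was at 189 and 143 CPM in male wannabes, 107, 89.3 and 120 in control and 151, 111 and 107 in rescued Treg cells. Mthfd2, a mitochondrial folate enzyme, was at 126 and 126 CPM in male wannabes, 108, 88.1 and 91.2 in control and 106, 104 and 113 in rescued Treg cells, below the wannabes in every library. Atf4 itself was at 119 and 129 CPM in male wannabes, 142, 110 and 112 in control and 112, 103 and 102 in rescued Treg cells. Ddit3 (CHOP), the pro-apoptotic factor downstream of Atf4, was at 31.9 and 48.5 CPM in male wannabes, 51.0, 44.9 and 32.7 in control and 30.3, 32.9 and 21.4 in rescued Treg cells. The groups overlapped for Ddit3, and rescued cells lay below the wannabes for Atf4, but neither gene passed either test. Asns (asparagine synthetase), Trib3 (a pseudokinase that restrains Atf4) and Ppp1r15a (the phosphatase subunit that reverses eIF2 phosphorylation) also passed neither of edgeR's tests. Nor did Psph (the last step of serine synthesis) and Aldh18a1 (proline synthesis).

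The male wannabe libraries differed from the Treg libraries in other ways as well. Cd4 was at 966 and 1374 CPM in them and at 391 to 513 in the 6 Treg libraries. It was at 855 to 956 CPM in the female wannabes, which are also Cd4wt. Every Cd4wt library was thus above every Cd4creERT2 library. Early response and heat shock genes summed to 752 and 1077 CPM in male wannabes against 1237 to 2254 in Treg libraries. Control Treg 1 held Hspa1a at 48.9 CPM against at most 3.80 in the other male libraries, and 15 of 17 chaperone-branch genes were above the mean of the male libraries in it and in rescued Treg 2. The part of these differences in the results was not tested. In bulk samples, fewer cells of a kind and less RNA per cell cannot be told apart.

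Rescued and control Treg cells were then compared, which asks how Foxp3 restoration in an inflamed mouse leaves Treg cells relative to those of healthy control mice. No member passed edgeR's test in either direction, where 1.43% of 14925 genes were higher and 0.864% lower. At an unadjusted p under 0.05, 4 members were higher (Xbp1, Dnajc3, Creld2 and Phgdh) and 1 was lower (Ddit3). DESeq2 called 3 of these higher (Xbp1, Creld2 and Phgdh) and none lower. No share over all genes was taken at the unadjusted level or with DESeq2, so these counts have no background beside them. The median log2 fold change was 0.17 over the chaperone branch and 0.02 over the Atf4 branch, and -0.03 over all genes.

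For the 4 members higher at the unadjusted level, rescued and control libraries did not overlap. They were picked by p in these same libraries, so the separation adds no support. The share of all genes so separated was not taken. For Xbp1 the change was 0.58 (95% interval 0.18 to 0.98, adjusted p = 0.137), for Creld2 0.56 (0.13 to 1.00, adjusted p = 0.186), for Dnajc3 0.47 (0.07 to 0.87, adjusted p = 0.227) and for Phgdh 0.46 (0.16 to 0.76, adjusted p = 0.118). Xbp1, Creld2 and Dnajc3 are those already described as ordered from male wannabe through control to rescued Treg cells, and Phgdh lay between the other groups in rescued cells. Ddit3 was at -0.61 (-1.19 to -0.02, adjusted p = 0.287), with the groups overlapping. The intervals of the 4 most abundant members included 0: Hspa5 was at -0.12 (-0.45 to 0.21), Pdia3 at -0.04 (-0.37 to 0.29), Hsp90b1 at 0.17 (-0.30 to 0.65) and Calr at 0.20 (-0.10 to 0.49).

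The other members given library by library showed no separation. Sdf2l1, a partner of ER J-proteins, was at 56.0, 33.2 and 47.7 CPM in control and 74.4, 65.4 and 45.7 in rescued Treg cells. Dnajb9 (ERdj4), an ER J-protein and Xbp1 target, was at 12.5, 9.90 and 6.49 CPM in control and 8.24, 11.4 and 8.22 in rescued Treg cells. Herpud1 was at 170, 166 and 150 CPM in control and 130, 156 and 146 in rescued Treg cells. In each the ranges of the groups overlapped. The sensors were low or variable, with Ern1 at 8.68 ± 0.81 CPM (SD, n = 3) in control and 9.78 ± 5.30 in rescued Treg cells, Atf6 at 65.4 ± 17.1 and 85.4 ± 13.3, and Eif2ak3 at 12.8 ± 6.14 and 12.2 ± 5.32.

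**Figure D3:**
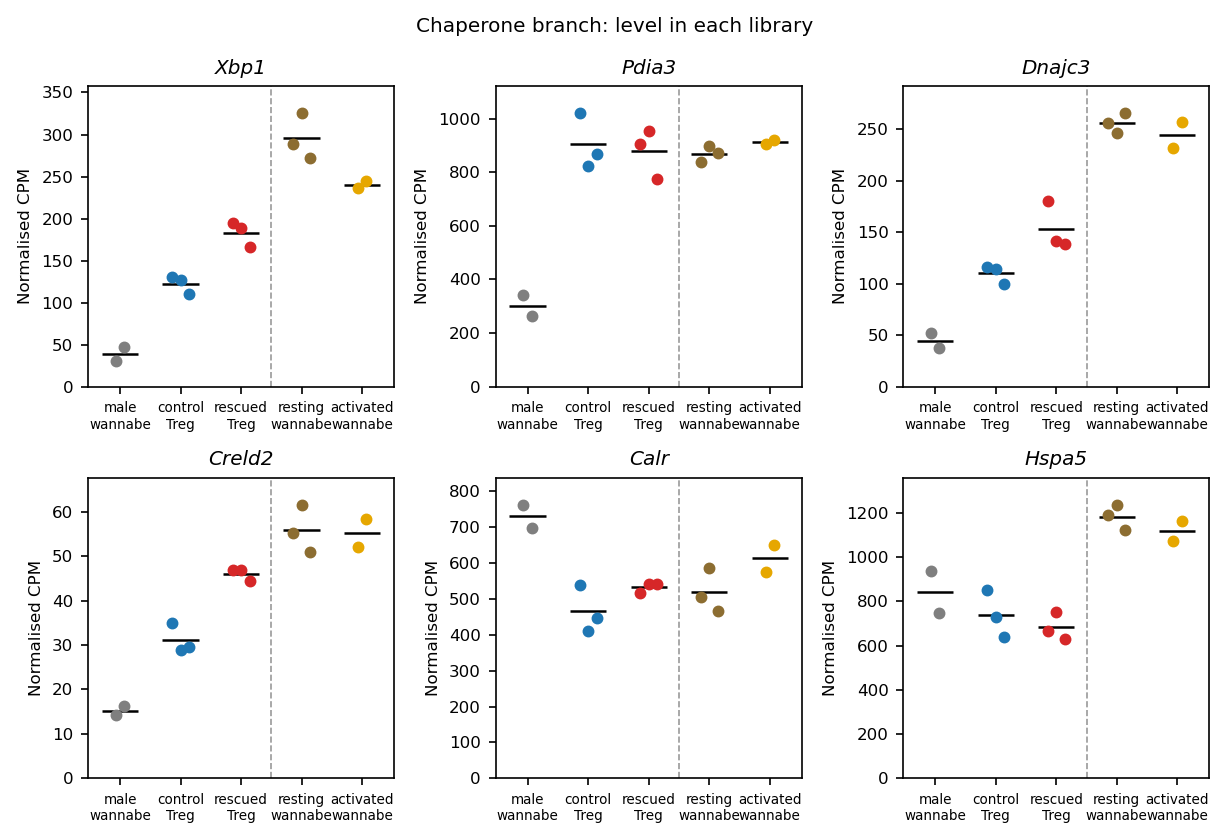
Normalised CPM of 6 chaperone-branch genes in each library (points) with the group mean (bars), from male wannabes on the left to activated wannabes on the right; the dashed line parts the 2 separately normalised experiments. Xbp1, Dnajc3 and Creld2 step up from male wannabes through control to rescued Treg cells without overlap, Pdia3 is low in male wannabes, Calr is highest in male wannabes among the males, and Hspa5 overlaps across the male groups.

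Activated and resting female wannabes were compared to ask what inflammation does to cells that lack functional Foxp3. Of the 31 members tested 5 were higher and 5 lower, where 11.3% of 13166 genes were higher and 11.2% lower. The Atf4 branch divided: Psat1, Phgdh and Mthfd2 rose while Ppp1r15a, Atf4 and Ddit3 fell. In the chaperone branch Sdf2l1 rose and Dnajb9 and Herpud1 fell, and the sensor Ern1 rose. The median log2 fold change was -0.07 over the chaperone branch and 0.21 over the Atf4 branch, against -0.01 over all genes.

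Psat1 was at 39.5, 46.0 and 41.8 CPM in resting and at 110 and 120 in activated wannabes. It rose 2.71-fold (log2 fold change 1.44 ± 0.10, adjusted p = 0.000517), and both activated libraries lay far above the resting ones. Phgdh was at 88.7, 99.6 and 107 CPM in resting and at 186 and 193 in activated wannabes, a rise of 0.94 ± 0.10 (adjusted p = 0.00163). Mthfd2 was at 70.1, 84.3 and 75.8 CPM in resting and at 117 and 133 in activated wannabes, a rise of 0.70 ± 0.11 (adjusted p = 0.00705). Psat1 and Phgdh passed the test in all 5 leave-one-out fits and Mthfd2 in 4 (0.59 to 0.79, lost without activated wannabe 2). Shmt2 gave 129 to 139 CPM in resting and 155 and 165 in activated wannabes without passing edgeR's test (adjusted p = 0.0566). DESeq2 called Shmt2 higher (adjusted p = 0.0317). Psph and Aldh18a1 did not pass either. Proliferation genes rose together in the same libraries, 8 of 8, from 448 to 520 CPM summed in resting to 1394 and 1472 in activated wannabes. Their part in the rise was not tested.

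Atf4 was at 92.0, 93.3 and 92.0 CPM in resting and at 66.9 and 73.9 in activated wannabes. The activated libraries lay below all 3 resting ones, and Atf4 fell by 0.40 ± 0.08 (adjusted p = 0.0203). Ddit3 was at 40.01, 39.6 and 33.1 CPM in resting and at 28.8 and 26.4 in activated wannabes and fell by 0.45 ± 0.13 (adjusted p = 0.0479). Ppp1r15a was at 423, 364 and 439 CPM in resting and at 283 and 179 in activated wannabes, again without overlap, and fell by 0.83 ± 0.20 (adjusted p = 0.0291). Early response and heat shock genes were lower in the same libraries, 8 of 10, with sums of 5205 to 5332 CPM in resting and 2660 and 3300 in activated wannabes. Their part in the fall was not tested. In the males Ppp1r15a lay between 50.7 and 99.0 CPM in every library, below every female library.

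These falls were called in fewer leave-one-out fits than the rises of Psat1 and Phgdh. Atf4 passed in 3 of 5 (-0.48 to -0.33, lost without either activated library). Ppp1r15a passed in 2 (-1.20 to -0.54, lost without resting wannabe 1 or 3 or activated wannabe 2). Ddit3 passed in 1 (-0.53 to -0.40, kept without resting wannabe 3).

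In the chaperone branch Sdf2l1 was at 46.1, 51.6 and 39.0 CPM in resting and at 65.8 and 72.6 in activated wannabes, a rise of 0.60 ± 0.13 (adjusted p = 0.0237). Dnajb9 was at 42.5, 34.3 and 38.7 CPM in resting and at 22.1 and 21.7 in activated wannabes and fell by 0.82 ± 0.13 (adjusted p = 0.00713). Herpud1 was at 158, 145 and 156 CPM in resting and at 123 and 118 in activated wannabes and fell by 0.34 ± 0.08 (adjusted p = 0.0255). None of the 3 overlapped between groups. Summed plasma cell markers were at 12.1, 10.2 and 27.4 CPM in resting and at 5.23 and 4.80 in activated wannabes. Of 3 such markers tested, 1 was called lower and 1 higher. Their part in these changes was not tested. Without either activated library Sdf2l1 (0.50 to 0.70 over the leave-one-out fits) and Dnajb9 (-0.90 to -0.74) lost their calls, and Herpud1 (-0.38 to -0.31) kept its call in 1 of 5, without resting wannabe 2. The Xbp1 levels given above differed by -0.30 ± 0.09 (edgeR adjusted p = 0.0651) with activated below resting libraries, and DESeq2 called Xbp1 lower (adjusted p = 0.0403). Dnajc3 was at 256, 246 and 265 CPM in resting and at 231 and 257 in activated wannabes, and Creld2 at 55.2, 61.6 and 51.0 and at 52.1 and 58.4, with overlap in both. No gene with an ERSE match passed edgeR's test. Hsp90b1, which holds 2 matches, changed by -0.28 ± 0.08 (adjusted p = 0.0531), with activated below resting libraries. DESeq2 called Hsp90b1 lower (adjusted p = 0.0254).

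Among the sensors, Ern1 was at 6.64 ± 0.40 CPM (SD, n = 3) in resting and 10.5 ± 0.99 (n = 2) in activated wannabes and rose by 0.66 ± 0.17 (adjusted p = 0.0352). This call was kept in 0 of 5 leave-one-out fits (0.55 to 0.75). Atf6 was at 48.3 ± 10.3 and 41.1 ± 1.49 CPM and Eif2ak3 at 22.1 ± 6.19 and 31.1 ± 1.78, and neither passed.

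**Figure D4:**
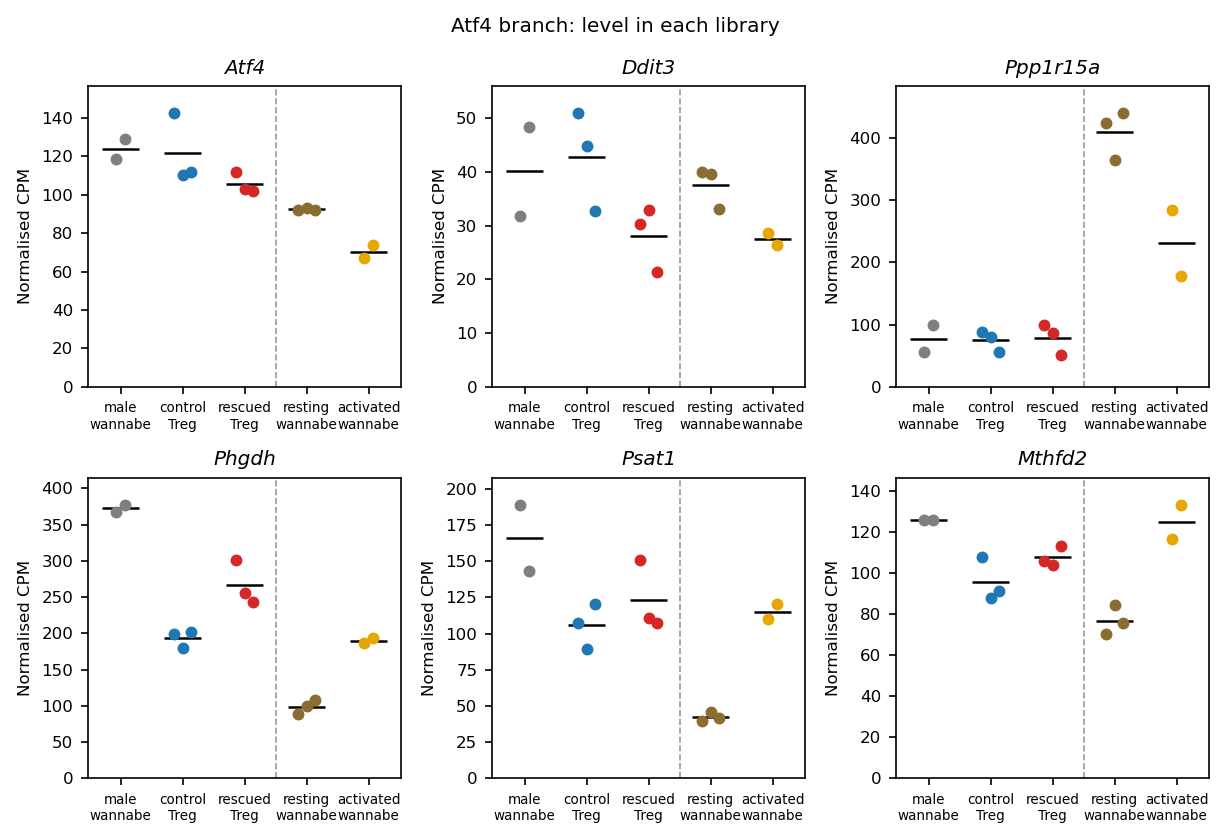
Normalised CPM of 6 Atf4-branch genes in each library (points) with the group mean (bars); the dashed line parts the 2 separately normalised experiments. In the females Atf4, Ddit3 and Ppp1r15a are lower and Phgdh, Psat1 and Mthfd2 higher in activated than in resting wannabes, with no overlap in any of the 6 genes.

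**Figure D5:**
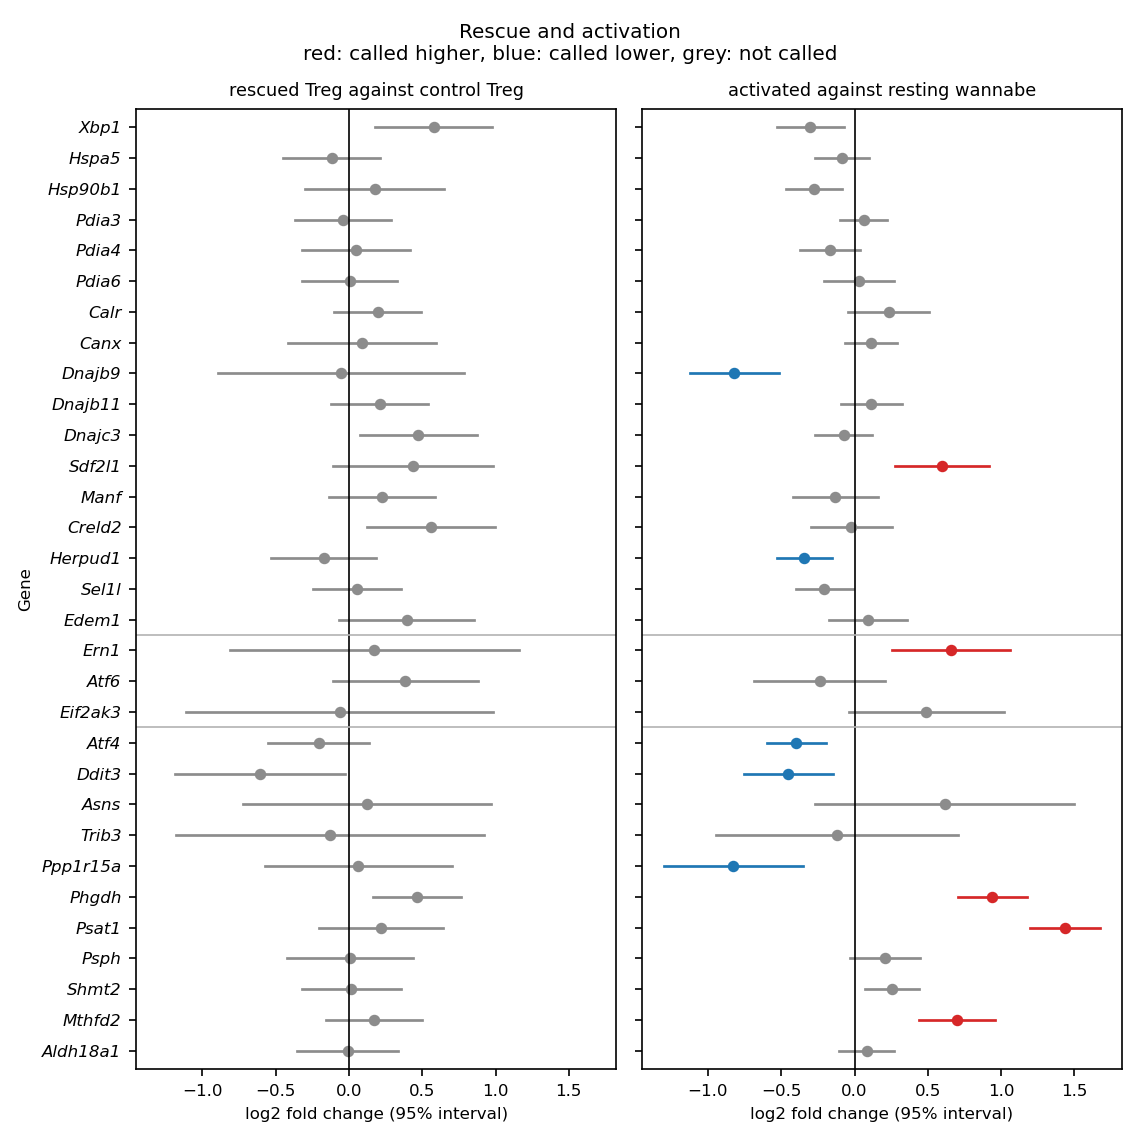
Log2 fold change (points) with 95% interval (lines) of the 31 tested members in rescued against control Treg cells (left, 3 against 3 libraries) and in activated against resting wannabes (right, 2 against 3). No point is coloured on the left, while 5 are called higher and 5 lower on the right, where the intervals are narrower.

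Whether a member changed differently in the rescue and in the activation was tested in a model over all 13 libraries, as the log2 fold change of rescued against control Treg cells minus that of activated against resting wannabes. These comparisons share no library. Of the members 0 were higher and 1 was lower, where 0.803% of 15201 genes were higher and 0.730% lower. The member was Psat1, with a difference of -1.21 ± 0.25 (95% interval -1.74 to -0.67, adjusted p = 0.0286): its change was 0.22 in the rescue and 1.44 in the activation. The call was kept in 4 of 13 leave-one-out fits, with differences from -1.38 to -1.09, and was lost without any of the female libraries, without control Treg 1 or 3 and without rescued Treg 2 or 3. DESeq2 also called Xbp1, higher by 0.88 ± 0.24 (adjusted p = 0.00931), where edgeR gave 0.89 ± 0.23 (adjusted p = 0.0845). Phgdh and Mthfd2 differed by -0.47 (adjusted p = 0.245) and -0.52 (adjusted p = 0.234) without passing.

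Further genes of the same pathways were counted in lists of non-members. Against male wannabes, 10.0% of all genes tested were higher and 4.06% lower in rescued Treg cells, and 9.92% higher and 6.27% lower in control Treg cells. ER folding enzymes (16 genes) had 4 higher in rescued and 4 higher and 1 lower in control Treg cells, led in both by the ER oxidase Ero1l with log2 fold changes of 2.16 ± 0.26 (adjusted p = 0.000484) and 1.51 ± 0.26 (adjusted p = 0.00340). Among genes of ER-associated degradation (16 genes), 5 were higher in rescued and 4 in control Treg cells, including Derl1 and the ubiquitin-conjugating enzyme Ube2j1, and none was lower. Genes of entry into the ER (23 genes) had 3 higher in rescued and 3 higher and 2 lower in control Treg cells; the oligosaccharyltransferase Stt3b was higher in both. The median log2 fold change of these 3 lists in rescued Treg cells was 0.13, -0.07 and -0.16, beside 0 over all genes.

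Among other Atf4 targets (21 genes, 18 tested), Slc1a5, a glutamine transporter, and Cebpg, a partner of Atf4, were higher in both Treg groups than in male wannabes, and 3 genes were higher and 2 lower in rescued, 2 higher and 3 lower in control Treg cells. Stc2, a secreted glycoprotein, had the lowest change of the list in control Treg cells (-3.63 ± 0.44, adjusted p = 0.000789). Of a list of aminoacyl-tRNA synthetases and the tRNA exportin Xpot (13 genes) 2 were higher and 3 lower in rescued and 2 higher and 4 lower in control Treg cells, with Gars higher and Aars lower in both. The list of eIF2 kinases, eIF2 and eIF2B subunits and related regulators (12 genes) had 1 call in each comparison, the eIF2B subunit Eif2b5, which was higher, and the Atf6 relatives and their proteases (5 genes) had none.

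In rescued against control Treg cells where 1.43% of all genes were higher and 0.864% lower, the same lists gave 4 calls, all higher: the disulfide isomerase Txndc5 (1.18 ± 0.24, adjusted p = 0.0291), Nploc4 of the degradation list (1.07 ± 0.22, adjusted p = 0.0303), Stc2 (2.06 ± 0.40, adjusted p = 0.0231) and Slc1a5 (1.06 ± 0.24, adjusted p = 0.0421).

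In activated against resting wannabes, where 11.3% of all genes were higher and 11.2% lower, 5 of 14 tested ER folding enzymes rose and none fell, led by Txndc5 (0.78 ± 0.07, adjusted p = 0.00113). Of the 23 entry genes 5 rose and 3 fell, of the 16 degradation genes 2 rose and 3 fell, and of 5 Atf6 relatives and proteases 2 fell, Creb3l2 and Mbtps1. Of the 13 genes of the synthetase list 4 rose, led by Wars, and none fell. Of the other Atf4 targets 3 rose and 2 fell, with Gpt2, an alanine aminotransferase, at 2.80 ± 0.20 (adjusted p = 0.000566) and the amino acid transporter Slc7a5 at 1.02 ± 0.11 (adjusted p = 0.00196) among those that rose, while the transporter Slc38a2 fell by 0.52 ± 0.08 (adjusted p = 0.00821). None of the 12 genes of the eIF2 list passed the test.

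Reads of some members could be shared with overlapping genes, since the strand setting of the counting is not given in the sources used here. Exons of single genes on the opposite strand covered 10.3% of Hsp90b1, 10.4% of Psph, 8.05% of Eif2ak3, 4.14% and 4.71% of Manf and 3.97% of Ddit3. Another Ddit3 entry on the same strand covered 6.13% of Ddit3. Calr and Phgdh each have a named pseudogene.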

How the data were processed

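Bulk RNA-seq counts of 13 libraries of doubly sorted cells were used. The authors made the libraries with SMART-Seq v4, aligned reads with STAR 2.7.3a to GRCm38 and counted them per gene; the deposited values are raw counts of reads per gene. Per the study's methods these came from biological replicates. Groups were taken from sample titles, and columns were matched to titles through their genotype or reporter names. The 4 rows without a gene name (at most 0.00841% of a library) were left out.

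Tests were run in R 4.3.3 with edgeR 4.0.16 (TMM normalisation, filterByExpr, quasi-likelihood F test, Benjamini-Hochberg over all genes tested, threshold 0.05), on the 8 male libraries together, the 5 female libraries together, and all 13 for the difference of changes. CPM were normalised by TMM within each experiment. edgeR estimated a common coefficient of variation between replicates of 0.51 for males and 0.17 for females, which is far above counting error for all but the lowest members. Alternatives were DESeq2 1.42.0, other size factors, no filter, a replicate block, fits of only the groups compared, and leaving out each library. The scripts were tested on simulated data.

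Members and lists were chosen with earlier results of these data known. Library values are given for Xbp1, Atf4 and Ddit3, and per branch for the 3 members with the smallest adjusted p in rescued against control Treg cells and in activated against resting wannabes; values of other called members, and of Hspa5, were added after their results were seen. Of the other lists, at most 3 called genes per comparison are named, those with the smallest adjusted p. Promoters are from RefSeq (GRCm38.p6); gene models are GENCODE M21.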

Additional observations from a re-analysis of the deposited data

Results flagged for a closer look

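Psat1 stood out because its change differed between the rescue and the activation by a test of the difference itself. The log2 fold change was 0.22 ± 0.19 in rescued against control Treg cells and 1.44 ± 0.10 in activated against resting wannabes, a difference of -1.21 ± 0.25 (edgeR's quasi-likelihood test over 13 libraries, adjusted p = 0.0286). The experiments differ in sex, age, treatment and the state of the cells, which cannot be told apart here. Proliferation genes were higher in activated than in resting wannabes in 8 of 8, and in rescued against control Treg cells they passed the test in 0 of 8, with a median of 1.03; their part in the difference was not tested.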

How the results depend on the processing

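The number of members called was compared across alternatives. Rescued against control Treg cells gave 0 calls, 3 with DESeq2 and 1 with only the 2 groups compared, and 0 to 1 when each library was left out. Activated against resting wannabes gave 10, 13 with DESeq2, 6 with a replicate block (without Atf4, Ddit3, Herpud1 and Ern1), and 2 to 10 when each library was left out: 2 without activated wannabe 2 and 4 without activated wannabe 1. The difference of changes gave 1, 2 with DESeq2, and 0 to 2 when each library was left out. In rescued and control Treg cells against male wannabes the counts stayed at 6 to 10 and 6 to 13. Replicate numbers did not pair the samples, since the correlations of same-numbered libraries ran from -0.10 to 0.34; the block gave 0, 7, 8 and 1 calls in the other comparisons. The Dnajb9 change in rescued against control Treg cells, -0.05, turned to 0.012 with the replicate block and ran from -0.27 to 0.18 when each library was left out, above 0 without control Treg 1, rescued Treg 1 or rescued Treg 3. The Creld2 change in activated against resting wannabes, -0.02, ran from -0.12 to 0.056, above 0 without resting wannabe 2 or activated wannabe 1. The cause was not tested. Setting each called change against genes of like transcript length and GC content, chosen after seeing the data, kept every direction; Sel1l in control Treg cells went from 0.64 to 0.38.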
